A study of Homo sapiens with 9 samples.

Results

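Ribosome biogenesis and nucleolar genes are described here in HMEC-1 cells, a human endothelial line from skin microvessels that was immortalised, exposed to AMI-1 or AMI-5. The set holds 45 genes listed by name. All 45 were found among the 18293 genes present in both count tables and all 45 passed the filter on low counts, as did 18284 genes in all. They were grouped by role into 8 nucleolar and RNA polymerase I genes, 3 core genes of the box C/D small nucleolar ribonucleoprotein (snoRNP), 4 genes of the box H/ACA snoRNP, 13 genes of small subunit assembly, 16 genes of large subunit assembly, and MYC.

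Ribosomes are built in the nucleolus, where RNA polymerase I transcribes a long precursor RNA. snoRNPs guide the modification of this precursor, box C/D particles by methylation of the ribose and box H/ACA particles by pseudouridylation, and many further factors cleave and fold it into the small and large ribosomal subunits. The transcription factor MYC is known to drive many of these genes through the E-box motif, and the glycine- and arginine-rich stretches of fibrillarin, nucleolin and GAR1 are known substrates of arginine methyltransferases.

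RNA was poly-A selected from cells grown in normal glucose (5.5 mM) and exposed for 16 h to AMI-1 in DMSO (100 µM, 3 libraries), AMI-5 in DMSO (100 µM, 3 libraries) or DMSO alone (control, 3 libraries). Both compounds are known as small-molecule inhibitors of protein arginine methyltransferases. Separate cultures are not stated for the libraries of 1 group, so p-values measure only the spread between libraries.

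Total counts ran from 14454113 to 24693020 per library. Libraries that share a replicate number deviated together from their group means, and those numbered 2 stood apart for many members: the control level of CCDC86 was 67.9 CPM (counts scaled to a fixed library total) in library 2 against 113.3 and 97.4 in libraries 1 and 3, and that of NOP58 was 125.2 against 69.0 and 81.9. For that reason each result is also given within numbers, and log2 fold changes (negative where the treated level is lower) are from a fit with the replicate number as a block unless stated. A gene is called, or said to rise or fall, where its p adjusted over all tested genes is under 0.05. Among 12 endothelial markers, 10 were tested, with mean control levels of 178 CPM for CDH5, 160 for TIE1, 480 for ENG and 6.96 for VWF. PECAM1 and CLDN5 were not among the tested genes. The 10 summed to 895.7 to 1318 CPM in the control libraries, 967.3 to 1258 with AMI-1 and 739.1 to 1038 with AMI-5, where the blocked fit called 6 of the 10 lower and 1 higher (7.51% and 3.44% of all genes). Of 16 markers of other cell types 10 were tested, and COL1A1 held most of their summed level (3198 to 4815 CPM in control, 3372 to 4491 with AMI-1, 2621 to 3499 with AMI-5). EPCAM, CDH1, PTPRC, CD3E, DES and DCN were not among the tested genes. The part of these markers in the results below was not tested. In RNA from bulk cells, fewer cells of a kind and less RNA per cell cannot be told apart.

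Promoter sequences are shown first. MYC, itself in the set, is known to drive many of these genes through the E-box. The choice of genes may therefore not be independent of that motif, and its share among members is a description. RefSeq windows (GRCh38.p14) from 250 bases before to 50 bases after the transcript start were matched for 36 of the 45 genes by symbol. NOP58, NOLC1, BOP1, RRS1, RRP12, RRP1B, DDX18, TCOF1 and MYC were not matched. The E-box CACGTG, which reads the same on both strands, was present in 19 of the 36 members (52.8%), against 1202 of 9715 tested genes matched in the same way (12.4%). The lines below show it in capitals, 5′ to 3′ on the gene's strand, for members whose levels are described later: 5 that were lower with AMI-5 in the blocked fit, a core gene of each kind of snoRNP, and NOL6, the member closest to MYC across libraries. They lie at chr11:60842076-60842105 (plus strand, CCDC86), chr17:4555340-4555369 (minus strand, MYBBP1A), chr22:30591880-30591909 (minus strand, PES1), chr3:51941892-51941921 (minus strand, RRP9), chr12:6568242-6568268 (minus strand, NOP2), chr19:39846356-39846385 (minus strand, FBL), chr4:109815781-109815810 (plus strand, GAR1) and chr9:33473894-33473923 (minus strand, NOL6).
CCDC86: cggcgggggctgCACGTGcgcaggggtgtg
MYBBP1A: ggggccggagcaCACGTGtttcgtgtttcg
PES1: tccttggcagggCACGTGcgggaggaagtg
RRP9: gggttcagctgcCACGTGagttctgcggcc
NOP2: aggtccggattgCACGTGgagggccgc
FBL: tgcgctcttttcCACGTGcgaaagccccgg
GAR1: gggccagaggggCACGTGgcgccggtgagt
NOL6: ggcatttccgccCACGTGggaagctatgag

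The E-boxes of the members sat close to the transcript start. Of 19 matches 13 (68.4%) began at or after the first transcribed base, with a median position of 9 bases after it and a range from -64 to 35. Among all tested genes matched, 139 of 1453 matches (9.57%) began at or after the start, and the median was -75. Positions count the first transcribed base as 0, and some genes had more than 1 start in the table, 8 of the members among them. A match describes letters in this window and does not show that a factor binds there.

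**Figure D1:**
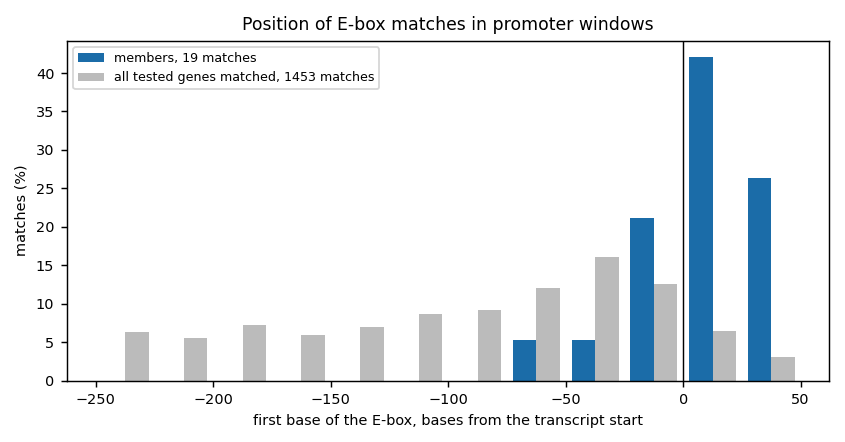
Position of E-box matches relative to the transcript start (x axis, bases, in bins of 25) as a share of all matches (y axis, percent) for members (blue) and all tested genes matched (grey). Of the members' 19 matches, 13 lie at or after the start.

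WDR74, which was lower with AMI-5, had no E-box in its window. It held the core of an ETS-family site, CCGGAAG, shown in capitals at chr11:62839587-62839616 (minus strand).
WDR74: cacacgctgcgCCGGAAGtgtgaactgtct

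CCGGAAG or its reverse complement CTTCCGG was present in 13 of 36 members (36.1%) and in 21.8% of tested genes. The NRF1 core GCATGCGC (or GCGCATGC) was in 4 (11.1%, against 6.44%) and AAGATGGC (or GCCATCTT), read by YY1, in 2 (5.56%, against 6.42%). For the E-box CACGTG, the median log2 fold change with AMI-1 was -0.18 in the 19 members with a match and -0.16 in the 17 without, and the medians with AMI-5 were -0.0985 and -0.0303, with ranges that overlapped.

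Every one of the 45 members lay below control with AMI-1, by small amounts. The members were chosen with earlier results of these data known, so shares beside those of all genes are a description, here and below. The log2 fold changes of the fit with the replicate block ran from -0.33 for CCDC86 to -0.0165 for WDR12, with a median of -0.17, while the median of all 18284 genes was -0.00189 and 50.5% of them lay below 0. The median of the members was -0.15, -0.14 and -0.175 in the pairs of libraries numbered 1, 2 and 3, with 44, 45 and 41 members below 0. In 40 of 45 members the AMI-1 library was lower in all 3 pairs, which held for 15.7% of all genes, and the exceptions were HEATR1, DDX10, DDX18, NOC3L and BRIX1. Of the 9597 genes at least as high as the lowest member, 17.6% were lower in all 3 pairs and 52.0% lay below 0 (median -0.00495). All 3 AMI-1 libraries were below all 3 controls for 4 members, NOP2, NOP14, RRP1B and MYC (2.06% of all genes were so). The summed level of the 45 members was 5553.8, 6022.3 and 5628.5 CPM in control libraries 1, 2 and 3, and 4932.0, 5407.3 and 5043.4 CPM with AMI-1. The AMI-1 sums were lower within each number and below all 3 control sums.

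Few of these differences passed the test for single genes. Without the block, edgeR's quasi-likelihood test with Benjamini-Hochberg adjustment over all genes called 0 of 45 members (0.0% of all genes, adjusted p = 1.0 at the lowest). An unadjusted p under 0.05 was held by 1 member (MYC) and by 187 of 18284 genes. DESeq2 called 0 (0.0165% of the 18220 genes it gave an adjusted p). With the block edgeR called CCDC86 alone, against 0.18% of all genes called lower. DESeq2 with the block called NPM1, CCDC86 and MYC, against 0.348% called lower of the 11194 genes it gave an adjusted p, all members among them. With a correction for transcript GC content added to the block, 25 of 45 members were called lower, against 2.14% of all genes, and the median was -0.165. That correction removes, library by library, a smooth trend of the level with GC content. Libraries were not left out in turn in the fit with GC correction, so the dependence of its calls on single libraries was not examined.

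**Figure D2:**
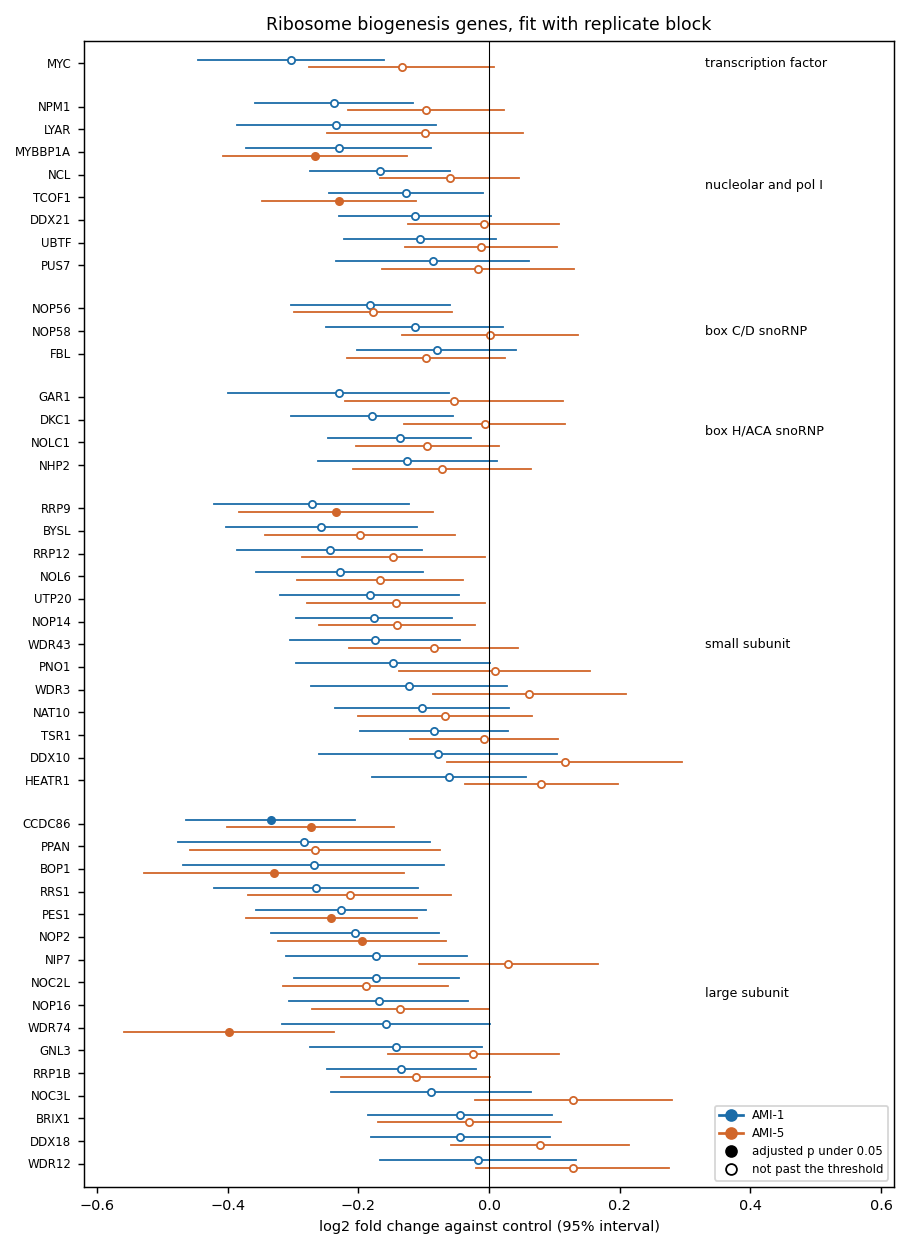
Log2 fold change against control (x axis) with its 95% interval for the 45 members, grouped by role, with AMI-1 in blue and AMI-5 in orange, from the fit with the replicate block. Filled points passed an adjusted p of 0.05: CCDC86 with AMI-1, and 8 members with AMI-5.

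With AMI-5, 36 of 45 members lay below control and 9 above. The median log2 fold change was -0.0967, beside -0.00495 for all genes, of which 50.95% lay below 0. The pair medians were -0.0301, -0.164 and -0.088, with 25, 40 and 36 members below 0, so the pair numbered 1 moved least. The AMI-5 library was lower in all 3 pairs for 22 members, 28.8% of all genes and 39.3% of the 9597 genes at least as high as the lowest member, of which 56.7% lay below 0 (median -0.0298). It was higher in all 3 for WDR12, HEATR1 and DDX18 (24.8% of all genes). The groups did not overlap for NOP56, NOP2, WDR74 and RRP1B, all lower (3.36% of all genes). With scaling by total counts alone, 29 members lay below 0 without the block and 28 with it, and the median of all genes moved from -0.00569 to 0.0526. The summed level was 5424.9, 5455.5 and 5307.9 CPM, below the control library of the same number in each case.

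The test without the block called 0 of 45 members with AMI-5 (0.0% of all genes). An unadjusted p under 0.05 was held by 1 member (WDR74) and by 485 of 18284 genes. DESeq2 called 0 (0.104% of the genes it gave an adjusted p). With the block 8 members fell, against 7.51% of all genes called lower: WDR74, CCDC86, TCOF1, MYBBP1A, PES1, BOP1, RRP9 and NOP2. DESeq2 with the block called the first 5 of these, against 9.84% called lower of the 10840 genes it gave an adjusted p, all members among them. With GC correction 9 were called, against 8.36% of all genes: WDR74, CCDC86, TCOF1 and BOP1 again, with NPM1, NOP56, WDR43, UTP20 and DDX21. BOP1 had no GC value and entered that fit uncorrected. RRP9 (adjusted p = 0.476), NOP2 (0.148), PES1 and MYBBP1A (0.0502 each) lost their call under the correction by edgeR's test.

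**Figure D3:**
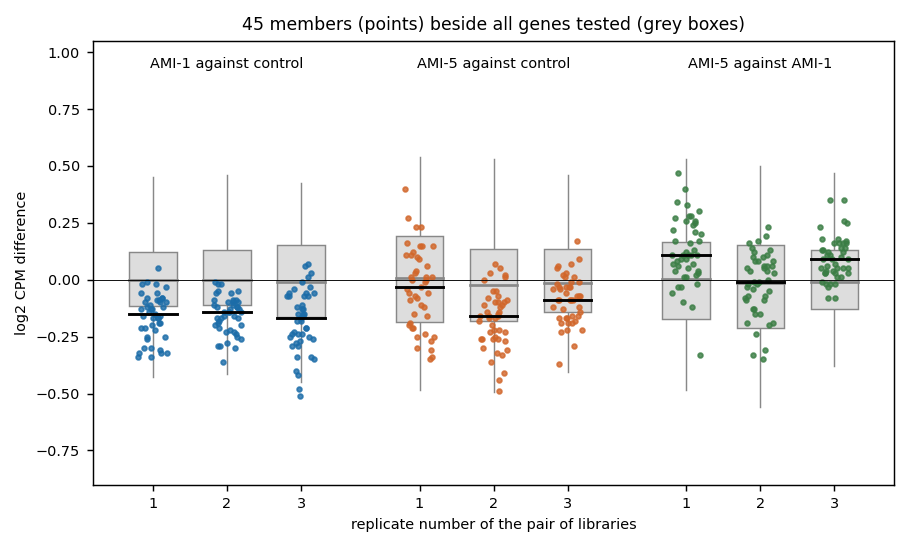
Log2 CPM difference (y axis) between libraries of 1 replicate number (x axis) for the 45 members (points, black bar at their median) and all tested genes (grey box from the 25th to the 75th percentile, whiskers to the 5th and 95th). With AMI-1 the members' medians are -0.15, -0.14 and -0.175; with AMI-5 they are -0.0301, -0.164 and -0.088.

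MYC encodes the transcription factor described above. Its control level was 147.1, 123.0 and 140.5 CPM in libraries 1, 2 and 3, its AMI-1 level 116.4, 115.5 and 100.8, and its AMI-5 level 140.8, 113.4 and 120.8. The AMI-1 libraries were below all 3 controls, while the AMI-5 libraries overlapped both groups. The log2 fold change with AMI-1 was -0.30 ± 0.07 (SE, n = 3 per group), with pair values of -0.34, -0.09 and -0.48. It missed the threshold in the blocked edgeR fit (adjusted p = 0.058) and passed with GC correction (-0.28, adjusted p = 0.000378). With AMI-5 the value was -0.13 ± 0.07 (adjusted p = 0.211).

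By Pearson's r of log2 CPM over the 9 libraries, the genes most like MYC among 12761 were PDGFA (0.958), PKP2 (0.945), PMM2 (0.938), TOE1 (0.928) and METTL1 (0.922). The other 44 members had a median r of 0.352, and the closest was NOL6 at 0.865. The libraries share treatment and replicate number, so these values are a description. Of 16 measured genes of the MYC network (partners, antagonists and regulators, MYC included), 10 lay below 0 with AMI-1 (median -0.0219, 0 called). With AMI-5, 8 lay below 0 (median 0.00909) and 1 was called lower, against 7.51% of all genes. MLXIP, which encodes a glucose-sensing relative of MYC, fell with AMI-5 from 141.7 ± 28.3 to 121.8 ± 20.0 CPM (SD, n = 3; -0.21 ± 0.06 SE, adjusted p = 0.024 by edgeR with the block), and not with GC correction (-0.0943, adjusted p = 0.108).

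Among the 8 nucleolar and polymerase I genes, all lay below 0 with both compounds, with medians of -0.147 for AMI-1 and -0.0786 for AMI-5. NPM1, the abundant nucleolar chaperone nucleophosmin, stood at 176.5, 216.0 and 210.9 CPM in control and 152.9, 175.9 and 182.8 with AMI-1. With AMI-5 it stood at 181.7, 185.8 and 194.6. Its AMI-1 level was lower within each number (-0.21, -0.30 and -0.21), but the highest AMI-1 library exceeded control library 1. The log2 fold change with AMI-1 was -0.24 ± 0.06 (adjusted p = 0.0902 by blocked edgeR, 3.7e-05 with GC correction), and with AMI-5 it was -0.0967 ± 0.0572 (adjusted p = 0.288, and 0.00519 with GC correction). Reads of its pseudogenes could not be separated with certainty, although NPM1P5, NPM1P8 and NPM1P14 each stood at a mean of at most 1.19 CPM in any group.

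NCL, nucleolin, had the highest level per kilobase of the longest annotated transcript (299.8 CPM per kb in control, ahead of FBL at 158 and NPM1 at 114). The median was 27.7, and the lowest was WDR12 at 4.13, with a length of 8100 bases. BOP1 had no length and was left out of this ranking. NCL stood at 1127.7, 1341.4 and 1159.6 CPM in control and 974.3, 1194.4 and 1064.6 with AMI-1, against 1130.2, 1238.7 and 1103.6 under AMI-5. Levels with AMI-1 were lower within each number, and the groups overlapped. The log2 fold change was -0.17 ± 0.05 with AMI-1 (adjusted p = 0.215, and 0.0032 with GC correction) and -0.0605 ± 0.0511 with AMI-5 (adjusted p = 0.474, by blocked edgeR). Its pseudogene NCLP1 stood at 13.6 CPM in control.

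TCOF1 and MYBBP1A were the nucleolar genes that fell with AMI-5. TCOF1 encodes treacle, which recruits polymerase I to the ribosomal genes. It stood at 202.0, 127.5 and 178.0 CPM in control and 189.7, 122.2 and 152.0 with AMI-1, while AMI-5 gave 174.3, 106.4 and 153.1. Its pairs differed by -0.21, -0.26 and -0.22 with AMI-5, while the control libraries ranged from 127.5 to 202.0 CPM (-0.23 ± 0.06, adjusted p = 0.0155 by blocked edgeR). MYBBP1A, a nucleolar protein that binds MYB, stood at 213.0, 133.3 and 177.9 CPM in control and 173.5, 128.4 and 140.8 with AMI-1. Levels with AMI-5 were 166.9, 108.4 and 159.3. Its log2 fold change with AMI-5 was -0.27 ± 0.07 (adjusted p = 0.0176). With GC correction the values with AMI-5 were -0.14 for TCOF1 (adjusted p = 0.0098) and -0.11 for MYBBP1A (adjusted p = 0.0502, no longer called). Omitting control library 1 or 3, or library 1 or 2 of AMI-5, ended both calls. The highest adjusted p was then 0.159 for TCOF1 and 0.183 for MYBBP1A, by blocked edgeR. Calls over all genes fell in those fits too, from 2002 to 320, 281, 155 and 310. UBTF, which encodes the upstream binding factor of polymerase I, had -0.11 with AMI-1 and -0.012 with AMI-5. LYAR, the helicase gene DDX21 and the pseudouridine synthase gene PUS7 had -0.23, -0.11 and -0.0864 with AMI-1.

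The 3 core genes of the box C/D snoRNP lay below 0 with AMI-1 (median -0.114, 0 called in the blocked fit, against 0.18% of all genes called lower). With GC correction 2 of them were called lower with AMI-1, against 2.14% of all genes. FBL encodes fibrillarin, the methyltransferase of the particle. It stood at 239.6, 186.2 and 236.4 CPM in control and 226.3, 185.4 and 212.7 with AMI-1, against 233.1, 162.6 and 226.2 under AMI-5. All 3 groups overlapped, and the log2 fold changes were -0.0803 ± 0.0580 and -0.0967 ± 0.0580 (adjusted p = 0.673 and 0.294 by blocked edgeR). NOP56, a scaffold of the particle, stood at 198.0, 224.4 and 198.6 CPM in control and 170.3, 206.8 and 171.2 with AMI-1, while AMI-5 gave 185.5, 185.8 and 176.3. Each AMI-5 library was below all controls, and values were -0.18 ± 0.06 with each compound (adjusted p = 0.245 with AMI-1 and 0.055 with AMI-5, by blocked edgeR; 0.00982 and 0.012 with GC correction). NOP58, its partner, stood at 69.0, 125.2 and 81.9 CPM in control and 63.0, 112.4 and 78.5 with AMI-1. Its AMI-5 levels were 76.5, 121.4 and 76.8. It had -0.11 ± 0.06 with AMI-1 and 0.0020 ± 0.0643 with AMI-5.

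The 4 genes of the box H/ACA snoRNP lay below 0 with both compounds in the blocked fit, with medians of -0.158 and -0.063. It called 0 of them, against 0.18% and 7.51% of all genes called lower. With GC correction 3 were called lower with AMI-1 and 0 with AMI-5 (2.14% and 8.36% of all genes), and 2 lay above 0 with AMI-5. DKC1 encodes dyskerin, the pseudouridine synthase. It stood at 108.2, 148.0 and 117.7 CPM in control and 95.1, 131.6 and 103.6 with AMI-1, against 116.7, 137.5 and 115.7 under AMI-5. Within numbers it differed by -0.19, -0.17 and -0.18 with AMI-1, and by 0.11, -0.11 and -0.03 with AMI-5. The fitted values were -0.18 ± 0.06 and -0.0070 ± 0.0588 (adjusted p = 0.264 and 0.955 by blocked edgeR; AMI-1 0.0111 with GC correction).

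GAR1 and NHP2 encode small core proteins of the same particle, and NOLC1 a chaperone that binds both kinds of snoRNP. GAR1 stood at 29.1, 35.8 and 31.0 CPM in control and 26.9, 29.4 and 25.6 with AMI-1, while AMI-5 gave 29.03, 30.12 and 32.57. The fitted difference was -0.23 ± 0.08 with AMI-1. NHP2 stood at 78.5, 55.0 and 74.6 CPM in control and 77.7, 51.4 and 62.6 with AMI-1. With AMI-5 it stood at 79.1, 49.7 and 70.1. Its log2 fold change was -0.13 ± 0.07 with AMI-1. NOLC1 stood at 208.6, 239.1 and 211.4 CPM in control and 185.8, 216.9 and 196.5 with AMI-1, against 200.5, 214.6 and 200.8 under AMI-5. The fitted difference was -0.14 ± 0.05 with AMI-1. Each of the 3 genes was lower with AMI-1 in all 3 pairs, and the groups overlapped.

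**Figure D4:**
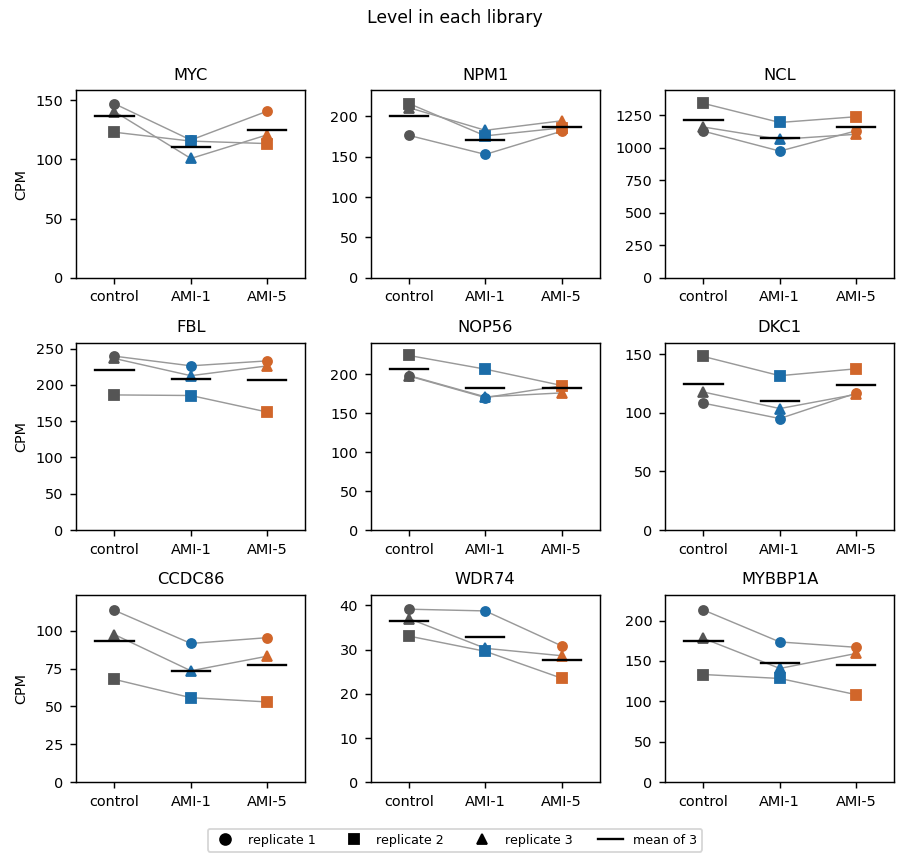
CPM (y axis, from 0) of 9 members in each library by group (x axis); symbols give the replicate number, grey lines join libraries of 1 number, and black bars are means of 3. MYC in the AMI-1 libraries lies below all controls (116.4, 115.5 and 100.8 against 147.1, 123.0 and 140.5 CPM), and WDR74 in the AMI-5 libraries does so too (30.9, 23.5 and 28.6 against 39.2, 33.1 and 37.0 CPM).

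In small subunit assembly all 13 members lay below 0 with AMI-1 (median -0.175) and 9 with AMI-5 (median -0.0845), of which RRP9 fell with AMI-5. RRP9 encodes a protein of the U3 snoRNP. It stood at 36.8, 28.4 and 35.1 CPM in control and 29.4, 23.8 and 29.6 with AMI-1, while AMI-5 gave 30.8, 23.6 and 30.7. Within numbers all 6 differences were between -0.19 and -0.32, and the log2 fold changes were -0.27 ± 0.07 (adjusted p = 0.123) and -0.23 ± 0.07 (adjusted p = 0.0399, by blocked edgeR). Omitting any control library, any AMI-5 library or library 1 of AMI-1 ended the AMI-5 call (highest adjusted p 0.25). So did GC correction, which gave -0.0753 (adjusted p = 0.476).

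NOL6 encodes a factor of the early small subunit precursor. It stood at 131.5, 106.9 and 114.0 CPM in control and 107.1, 96.8 and 96.0 with AMI-1. Levels with AMI-5 were 114.0, 91.0 and 108.3. The log2 fold changes with AMI-1 and AMI-5 were -0.23 ± 0.06 (adjusted p = 0.131) and -0.17 ± 0.06 (adjusted p = 0.081, by blocked edgeR). BYSL, bystin, stood at 63.3, 46.7 and 59.8 CPM in control and 50.6, 43.7 and 47.0 with AMI-1, against 55.6, 39.9 and 52.4 under AMI-5. The log2 fold changes with AMI-1 and AMI-5 were -0.26 ± 0.07 and -0.20 ± 0.07. WDR3 encodes another factor of the early precursor and had values of opposite sign with the compounds in the blocked fit. It stood at 45.3, 73.0 and 54.5 CPM in control and 43.4, 62.4 and 51.8 with AMI-1, while AMI-5 gave 54.5, 68.8 and 55.0. The log2 fold changes with AMI-1 and AMI-5 were -0.12 ± 0.07 and 0.0616 ± 0.0707, neither past the threshold in that fit. With GC correction both values lay below 0, at -0.18 with AMI-1 (adjusted p = 0.0373 by edgeR, called) and -0.047 with AMI-5 (adjusted p = 0.591). The remaining 9 small subunit members (NOP14, WDR43, HEATR1, UTP20, RRP12, DDX10, PNO1, TSR1 and the RNA acetyltransferase gene NAT10) had values from -0.24 (RRP12) to -0.062 (HEATR1) with AMI-1 and from -0.15 (RRP12) to 0.12 (DDX10) with AMI-5.

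In large subunit assembly all 16 members lay below 0 with AMI-1 (median -0.171) and 12 with AMI-5 (median -0.162). CCDC86 fell with AMI-1, and CCDC86, WDR74, PES1, BOP1 and NOP2 fell with AMI-5. CCDC86, a nucleolar coiled-coil protein, stood at 113.3, 67.9 and 97.4 CPM in control and 91.5, 55.8 and 73.5 with AMI-1. Its AMI-5 levels were 95.3, 53.0 and 83.1. Each treated library was below its control of the same number, while the spread over numbers made all groups overlap. It fell to 0.793 of control with AMI-1 (-0.33 ± 0.06, adjusted p = 0.0129) and to 0.827 with AMI-5 (-0.27 ± 0.06, adjusted p = 0.0098, by blocked edgeR). Omitting any control library, or library 1 of either compound, ended the AMI-1 call (highest adjusted p 0.172). Omitting control library 1 or 3, or library 1 or 2 of AMI-5, ended the AMI-5 call (highest adjusted p 0.11). Both calls held with GC correction (adjusted p = 1.33e-05 and 0.000755). An exon of PTGDR2 overlaps CCDC86 on the opposite strand, and PTGDR2 stood at 8.91 CPM in control.

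WDR74, which acts in the maturation of the large subunit, had the largest fitted decrease with AMI-5 among the 45. It stood at 39.2, 33.1 and 37.0 CPM in control and 38.8, 29.6 and 30.3 with AMI-1, against 30.9, 23.5 and 28.6 under AMI-5. All AMI-5 libraries were below all controls, and the AMI-1 libraries overlapped both groups. The log2 fold change with AMI-5 was -0.40 ± 0.08 (adjusted p = 0.00404; 0.000479 with GC correction), with pair values of -0.34, -0.49 and -0.37. Omitting control library 3, or library 1 or 2 of AMI-5, ended the call (highest adjusted p 0.0693, by blocked edgeR). With AMI-1 the value was -0.16 ± 0.08 (adjusted p = 0.497). The gene overlaps the small nuclear RNA gene RNU2-2, whose mean level was 0.91, 1.2 and 3 CPM in control, AMI-1 and AMI-5. How reads of the overlap were assigned is not given in the sources used here, and their part in the WDR74 values was not tested.

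PES1 and BOP1 encode partners in 1 complex with WDR12, needed to process the large subunit RNA. PES1 stood at 121.7, 92.9 and 109.3 CPM in control and 102.2, 84.7 and 89.2 with AMI-1, while AMI-5 gave 103.1, 74.4 and 96.7. It fell with AMI-5 (-0.24 ± 0.06, adjusted p = 0.0192 by blocked edgeR). Omitting control library 1 or 3, or library 1 or 2 of AMI-5, ended the call (highest adjusted p 0.18, by blocked edgeR). The call was also lost with GC correction (-0.12, adjusted p = 0.0502). BOP1 stood at 22.6, 10.5 and 18.4 CPM in control and 19.8, 9.56 and 13.7 with AMI-1. With AMI-5 it stood at 18.4, 7.72 and 15.0. It fell with AMI-5 (-0.33 ± 0.10, adjusted p = 0.0326 by blocked edgeR). WDR12, the third partner, stood at 27.8, 41.8 and 30.8 CPM in control and 27.2, 41.4 and 30.6 with AMI-1, against 32.6, 43.7 and 32.8 under AMI-5. It was higher with AMI-5 in all 3 pairs (0.23, 0.07 and 0.09; fitted value 0.13 ± 0.07, adjusted p = 0.252 by blocked edgeR).

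NOP2, a methyltransferase of large subunit RNA, varied little across numbers. It stood at 85.6, 88.0 and 85.2 CPM in control and 78.0, 75.1 and 71.9 with AMI-1, while AMI-5 gave 80.9, 70.8 and 74.6, with both treated groups below all controls. The value was -0.21 ± 0.06 with AMI-1 (adjusted p = 0.202) and -0.19 ± 0.06 with AMI-5 (adjusted p = 0.0481, by blocked edgeR). Omitting any control library, library 1 of AMI-1, or library 1 or 2 of AMI-5 ended the BOP1 call (highest adjusted p 0.244). The same omissions, and that of library 3 of AMI-5, ended the NOP2 call (0.309, by blocked edgeR). With GC correction the NOP2 value with AMI-5 was -0.0986 (adjusted p = 0.148).

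NIP7 and NOC3L encode 2 further large subunit factors. NIP7 stood at 46.2, 65.9 and 53.8 CPM in control and 42.3, 55.2 and 49.2 with AMI-1. Levels with AMI-5 were 51.4, 62.7 and 54.2. NOC3L stood at 37.4, 68.8 and 43.2 CPM in control and 33.2, 60.9 and 45.2 with AMI-1, against 43.8, 68.6 and 48.6 under AMI-5. NOC3L was near or above its control with AMI-5 in each number, with 0.13 ± 0.07 (adjusted p = 0.258 by blocked edgeR). Of the rest, RRS1, NOP16, RRP1B, GNL3, BRIX1, DDX18 and NOC2L, the values ran from -0.26 (RRS1) to -0.0439 (DDX18) with AMI-1 and from -0.21 (RRS1) to 0.0772 (DDX18) with AMI-5. PPAN had -0.28 and -0.27, but its reads cannot be separated from those of the readthrough gene PPAN-P2RY11, which stood at 42.6 CPM in control beside 48.5 for PPAN.

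The 9 members above control with AMI-5 in the blocked fit were NOP58, WDR12, WDR3, NIP7, HEATR1, DDX10, DDX18, PNO1 and NOC3L, at 0.0020 to 0.129, and 0 of them were called. All had a transcript GC content of at most 48.4%. Over the 44 members with a value, GC content (median 50.7%, range 37.7% to 63.2%, against a median of 48.1% for all genes) correlated with the log2 fold change at r = -0.59 with AMI-1 and r = -0.78 with AMI-5. These members share libraries, so the correlations are a description. Over 17505 genes the values were -0.22 and -0.39. The 22 GC-rich members had a median of -0.183 with AMI-5, all below 0, and the 22 GC-poor members -0.0127, with 13 below 0. With AMI-1 the medians were -0.193 and -0.136, all 44 below 0. After GC correction the correlations were -0.15 and -0.01, and the GC-rich and GC-poor medians with AMI-1 were -0.171 and -0.16. The corresponding AMI-5 medians were -0.073 and -0.0759. Of the 9 members named above, WDR12, NIP7 and DDX10 stayed above 0 with AMI-5 after GC correction (0.0318, 0.0365 and 0.0155). The others of the 9 lay below 0, while DKC1, NHP2, UBTF and TSR1 then lay above it.

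**Figure D5:**
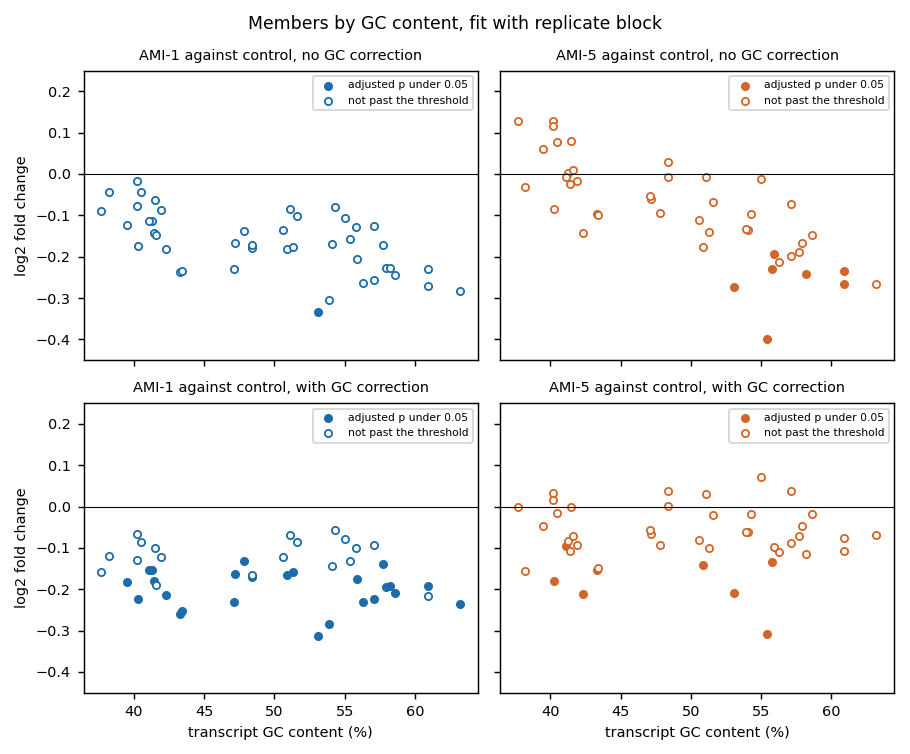
Log2 fold change (y axis) against transcript GC content (x axis, percent) for 44 members, with AMI-1 on the left and AMI-5 on the right, before GC correction (top) and after it (bottom). Filled points passed an adjusted p of 0.05. With AMI-5 the correlation is -0.78 before and -0.01 after correction.

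AMI-5 against AMI-1, at the same dose and time, tested the difference between the compounds directly. The members had a median log2 difference of 0.0611, beside -0.00628 for all genes, and 38 of 45 were higher with AMI-5. The pair medians were 0.108, -0.00558 and 0.0888. By edgeR 0 members were called, with the block (5.1% of all genes) or without it (0.0% of all genes). An unadjusted p under 0.05 was reached by 0 members without the block (478 of 18284 genes) and by 11 with it (3557 of 18284 genes). DESeq2 called 0 as well (0.198% of the genes it gave an adjusted p, and 5.67% of 12258 with the block). In 14 members the AMI-5 library was higher in all 3 pairs (16.7% of all genes, 13.3% of those at least as high as the lowest member), and WDR74 was lower in all 3 (18.5% and 23.1%). The groups overlapped for all 45 (3.28% of all genes were lower without overlap and 4.21% higher). The comparisons with control share the 3 control libraries, so agreement of their directions is not read here.

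The 5 members with the lowest p in the direct contrast were WDR74, NIP7, NOC3L, DKC1 and WDR3. WDR74 was lower with AMI-5 than with AMI-1, with a difference of -0.24 (95% interval -0.40 to -0.079, adjusted p = 0.0783 by blocked edgeR). NIP7 was higher by 0.20 (0.0642 to 0.34, adjusted p = 0.0839), NOC3L by 0.22 (0.0661 to 0.37, 0.0911), DKC1 by 0.17 (0.0489 to 0.30, 0.101) and WDR3 by 0.18 (0.036 to 0.33, 0.147). For MYC the difference was 0.17 (0.0277 to 0.31, adjusted p = 0.164), with pair values of 0.27, -0.03 and 0.26. With GC correction 9 members were called, against 4.97% of all genes higher and 6.86% lower: DKC1, NOL6, RRP12, PPAN, NIP7, UBTF, NOC3L and MYC higher with AMI-5 (MYC 0.22, adjusted p = 0.00166), and WDR74 lower.

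The neighbouring factors of the pathway give the frame for these values. Of 87 further factors of small and large subunit assembly, 79 lay below 0 with AMI-1 (median -0.0991, 0 called), and 44 were lower in all 3 pairs (15.7% of all genes). With GC correction 10 were called lower (2.14% of all genes). With AMI-5, 53 lay below 0 (median -0.0684), 12 fell and 2 rose, against 7.51% and 3.44% of all genes. The largest of these, DDX54, an RNA helicase gene, fell from 114.3 ± 34.8 to 81.1 ± 26.2 CPM (SD, n = 3; -0.50 ± 0.07 SE, adjusted p = 0.000445 by blocked edgeR) and was lower than with AMI-1 (-0.31, adjusted p = 0.0153). DHX37, PWP2, TBL3 and WDR18 fell too (-0.33, -0.31, -0.28 and -0.35), and RSL24D1, of the large subunit, rose (0.31, adjusted p = 0.0147 by blocked edgeR), as did KRR1, of the small subunit (0.25, adjusted p = 0.0431). With GC correction DDX54, DHX37 and PWP2 kept their calls at -0.34, -0.16 and -0.17, while TBL3, WDR18, RSL24D1 and KRR1 lost theirs at -0.0764, -0.13, 0.16 and 0.0938 (adjusted p = 0.325, 0.0908, 0.0515 and 0.153). Of the 87 factors, 74 then lay below 0 with AMI-5 (median -0.0737), beside 38 of the 45 members (median -0.0753). Called lower were 10 of the 87, against 8.36% of all genes.

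Among 14 polymerase I subunits and initiation factors, 10 lay below 0 with AMI-1 (median -0.125, 0 called) and 8 with AMI-5 (median -0.0107). TAF1C alone fell with AMI-5, against 7.51% of all genes called lower (-0.24, adjusted p = 0.0431 by blocked edgeR). With GC correction it had -0.0589 (adjusted p = 0.495). CD3EAP and TAF1D, of the same machinery, were higher with AMI-5 than with AMI-1 (0.25 ± 0.07 and 0.26 ± 0.07, adjusted p = 0.046 each by blocked edgeR). Of all genes, 5.1% were called in that comparison, in either direction. Among 11 genes of ribosomal RNA methylation, 10 lay below 0 with AMI-1 (median -0.0791, 0 called) and 9 with AMI-5 (median -0.0967). They include the members FBL and NOP2, and FTSJ3 and RRP8 of the further assembly factors above. NOP2 alone fell with AMI-5, against 7.51% of all genes called lower, a call lost with GC correction (adjusted p = 0.148).

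Counting could also mix members with the genes they enclose. In the GENCODE annotation 8 members, among them NCL, NOP56, NOP58, DKC1 and GNL3, hold 27 snoRNA genes, and 25 members overlap an exon of another gene, 10 of them on the same strand and 18 on the opposite strand. The strand setting of the counts is not given in the sources used here, so reads from such partners cannot be told apart.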

How the data were processed

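Poly-A RNA of 9 libraries (3 per group) was analysed from raw counts per gene that the authors deposited in 2 tables, with the same control libraries in each (0 control values differed). BWA, bedtools and hg19 are named per the submitters' processing notes; for versions, gene annotation and strand setting, nothing is given in the sources used here. The tables hold 18385 and 18598 genes with a mean count of at least 10.

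Genes in both tables were tested with edgeR 4.0.16 in R 4.3.3 (TMM normalisation, filterByExpr by group, robust quasi-likelihood F test, Benjamini-Hochberg over 18284 genes, threshold 0.05), in 1 fit of all libraries, without and with the replicate number as a block. CPM values use TMM-scaled library sizes, and log2 CPM a prior count of 2. The biological coefficient of variation was 23.7% without and 5.64% with the block. The pairing comes from the replicate numbers of the labels: deviations from group means correlated at 0.431 to 0.871 between libraries of 1 number and at -0.804 to 0.204 between different numbers, and 9 of 9 libraries matched their own number best. GC content came from the longest GENCODE release 29 transcript (GRCh38, used for GC, lengths and overlaps only), known for 95.7% of genes; a lowess curve per library (span 0.3, 14761 genes) was the offset. The fits without GC correction were tested on simulated data, with fold changes larger than those fitted for the members. Alternatives included DESeq2 1.42.0, other scalings, no filter, and leaving out each library.

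The members, role lists and marker lists were chosen with earlier results of these data known. Values in every library are given for MYC, NPM1, NCL and FBL, for the 2 members of each role group with the lowest p against control for each compound, and for the 5 with the lowest p between compounds, in the blocked fit. BOP1, NOP2 and WDR12 beyond that rule, and KRR1, RNU2-2, PPAN-P2RY11 and the pseudogenes, were chosen after their values were seen. Up to 3 called genes of each other list are named. One further promoter motif that was planned and searched is not reported here.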

Additional observations from a re-analysis of the deposited data

How the results depend on the processing

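Without the block, members called were 0 in all 3 comparisons under every scaling and filter, under DESeq2 and with each library left out (0 to 0). With the replicate block 1, 8 and 0 members were called (AMI-1, AMI-5, AMI-5 against AMI-1), with block and GC correction 25, 9 and 9, and with DESeq2 and the block 3, 5 and 0. The block with DESeq2 size factors gave 1, 10 and 0 (71, 1957 and 911 of 18284 genes). With scaling by total counts the block gave 1, 3 and 3 (81, 2069 and 874 of 18284 genes). Both settings were chosen after seeing the data. Leaving out 1 library in the blocked fit gave 0 to 10, 0 to 16 and 0 to 13. The AMI-1 count was 10, 4 and 3 on omitting AMI-1 library 2, AMI-1 library 3 and AMI-5 library 3, and 0 on omitting control library 1 or 3 or library 1 of either compound. The AMI-5 count was 16 and 14 on omitting AMI-1 libraries 3 and 2, 5 on omitting control library 2 or AMI-1 library 1, 1 on omitting control library 1, and 0 on omitting control library 3 or library 1 or 2 of AMI-5. The direct count was 13, 1 and 1 on omitting AMI-1 library 3, AMI-1 library 2 and AMI-5 library 3. Calls over all genes moved in these fits too. Of 18284 genes 75, 2002 and 932 (0.41%, 10.9% and 5.1%) were called with all libraries, and on omitting 1 library 14 to 354, 155 to 4283 and 192 to 3465 (at most 1.94%, 23.4% and 18.9%). The highest counts fell in the fits with 10, 16 and 13 members called. With AMI-5, 320, 281, 155 and 310 genes were called on omitting control library 1, control library 3 and AMI-5 libraries 1 and 2. Members called in those fits were 1, 0, 0 and 0. With AMI-1, the fits without control library 1 or 3 or library 1 of either compound called 19, 27, 14 and 50 genes. The cause was not tested.

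Median log2 fold changes kept their sign in every alternative run. With AMI-1, scaling by total counts gave -0.151 without and -0.149 with the block, and leaving out 1 library gave -0.201 to -0.144 without the block and -0.18 to -0.138 with it. Without the block, 32 members lay below 0 on omitting control library 2. With AMI-5 the ranges were -0.108 to -0.079 and -0.121 to -0.066, and between compounds 0.057 to 0.096 and 0.041 to 0.111. With AMI-5, scaling by total counts gave -0.039 without and -0.037 with the block. Over the 21 named members and 3 comparisons, 114 of 1764 alternative values passed the threshold, 0 of them with a sign opposite to that of the fit without the block, which itself called none; 109 differed in sign with neither value called.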
